A study of Stipitochalara longipes with 7 samples.

Results

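Stipitochalara longipes (Chalara longipesis in some labels) is an ascomycete of needle litter. Of its 19765 gene models, 179 were low after 2 months of growth on pine needles and higher in every library taken after 5 and 10 months. They were chosen by measured values, namely total gene reads divided by a size factor for each library (called the scaled read count here). The lowest scaled read count over the 5-month and 10-month libraries had to be at least 100 and at least 2 times the highest at 2 months. This held for 203 gene models, of which 15 were left out because every 5-month library was at least 2 times above all other libraries, and 9 because every 10-month library was. The limit of 200 gene models that came with the rule was not reached. The size factors are medians over the 8859 gene models with reads in every library.

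The series compares 3 harvests of one fungus grown alone: 2 libraries at 2 months, 2 at 5 months and 3 at 10 months. All microcosms shared gamma-sterilised Scots pine needles (11 g dry, on 85 g of sand), 20 ml of 100 mM ammonium chloride and incubation at 20 °C, and were inoculated with needles colonised beforehand for 2 months, per the labels' protocols. The 2-month harvest was thus itself a needle culture. The protocol names 4 replicates harvested each time, against 2, 2 and 3 libraries here. The labels call the libraries of a harvest biological replicates without saying how microcosms map to them. The standard deviations (SD) below thus measure the spread between libraries. The standard errors (SE) come from a fit whose estimate of spread draws on all harvests and all gene models tested. Limits given in reads are counting error only.

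Fungi of needle litter live on dead plant tissue. They take up soluble compounds and secrete enzymes that open the cellulose, hemicelluloses and lignin of the cell wall, in a food that holds little nitrogen. Which genes are active therefore tends to change as a needle is colonised and consumed. The files do not pair the protein identifiers of the Joint Genome Institute (JGI) with names, products, positions or sequences, so no role can be given for any gene model here, and the lists of enzyme and transporter families that had been prepared could not be applied to any member.

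In depth outside the most abundant gene models, 2-month replicate 2 stood furthest apart. Total gene reads ran from 20009777 to 52554481 per library, but 8 very abundant gene models, none of them a member, took so much of 2-month replicate 2 that 2938002 reads were left for all other gene models, against 6880842 to 16923473 in the other 6 libraries. That replicate detected 10139 gene models, and the others 13405 to 17076. Of the others, 5-month replicate 1 had the fewest reads left and 10-month replicate 3 the fewest gene models detected. A single read in 2-month replicate 2 is worth 3.40 scaled counts. A count of 0 there allows up to 3 reads, which is 10.2 scaled counts, against 1.60 to 3.83 elsewhere. These limits cover counting error only. In bulk RNA, fewer active hyphae of a kind and less RNA per hypha cannot be told apart. Without 2-month replicate 2 the rule was met by 345 gene models, including all 179. With libraries scaled by the total of all gene reads in place of size factors it was met by 79, of which 46 were among the 179.

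The separation was moderate for most members and extreme for a few. The ratio of the lowest later library to the highest 2-month library had a median of 2.75 and quartiles of 2.27 and 4.09. It was under 3 in 102 of the 179, at least 4 in 46, at least 8 in 15, at least 16 in 7 and at least 32 in 5. Mean over mean, the 5 later libraries stood above the 2-month libraries by a median of 7.50-fold (quartiles 4.98 and 13.7) in the 178 members with a read at 2 months. Because these values chose the members, they are a description. The 6182 other gene models that had at least 100 scaled counts in every later library had a median of 1.09-fold.

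**Figure D1:**
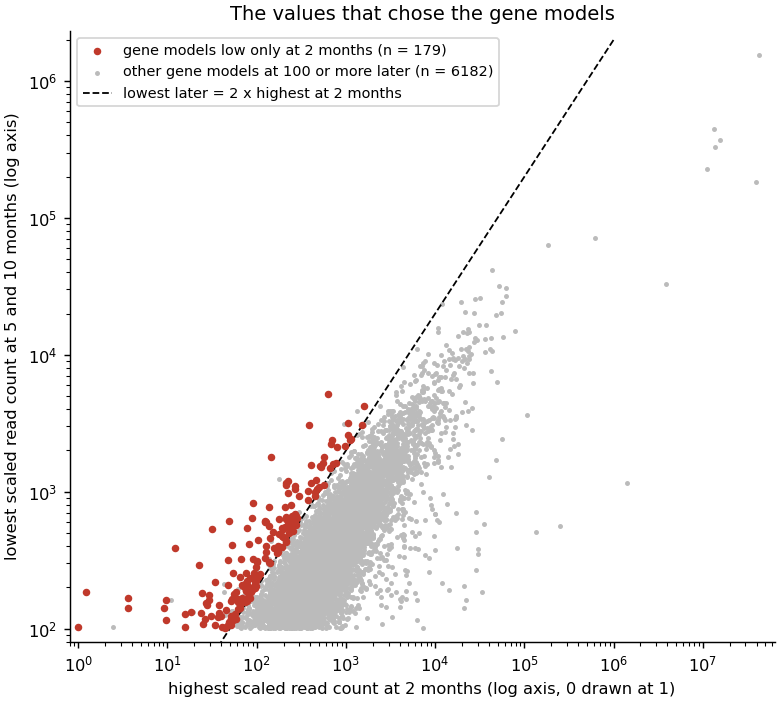
Lowest scaled read count at 5 and 10 months (vertical, log axis) against the highest at 2 months (horizontal, log axis, 0 drawn at 1) for 179 members (red) and 6182 other gene models at 100 or more in every later library (grey). All red points lie on or above the dashed line, where the lowest later library is 2 times the highest 2-month library, and grey points above it are those left out for a peak at 5 or 10 months.

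The median over the members was 93.5 and 3.40 scaled counts in 2-month replicates 1 and 2. It was 547 and 600 in the 5-month replicates 1 and 2, and 529, 466 and 613 in the 10-month replicates 1, 2 and 3. The other 6182 gene models had nearly level medians, from 534 to 611 over the 7 libraries, which scaling by size factors tends to produce. Over all 19765 gene models the medians were 34.0 and 3.40 in 2-month replicates 1 and 2. They were 49.8 and 57.2 in the 5-month libraries, and 37.8, 35.2 and 31.5 at 10 months. The median in 2-month replicate 2 was thus the lowest over all gene models too. Together the members took 0.338% and 0.196% of the reads outside the 8 abundant gene models at 2 months, 2.48% and 2.49% in the 5-month libraries, and 1.46%, 1.35% and 1.82% at 10 months. On that scale the joint share at 10 months was below that at 5 months and above that at 2 months in each library. Of all reads, the abundant models included, it was 0.178% and 0.0131% at 2 months, 0.324% and 1.75% in the 5-month libraries, and 0.962%, 0.655% and 0.523% at 10 months. There 5-month replicate 1 lay below all 10-month libraries, while the 2-month libraries were still the lowest.

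**Figure D2:**
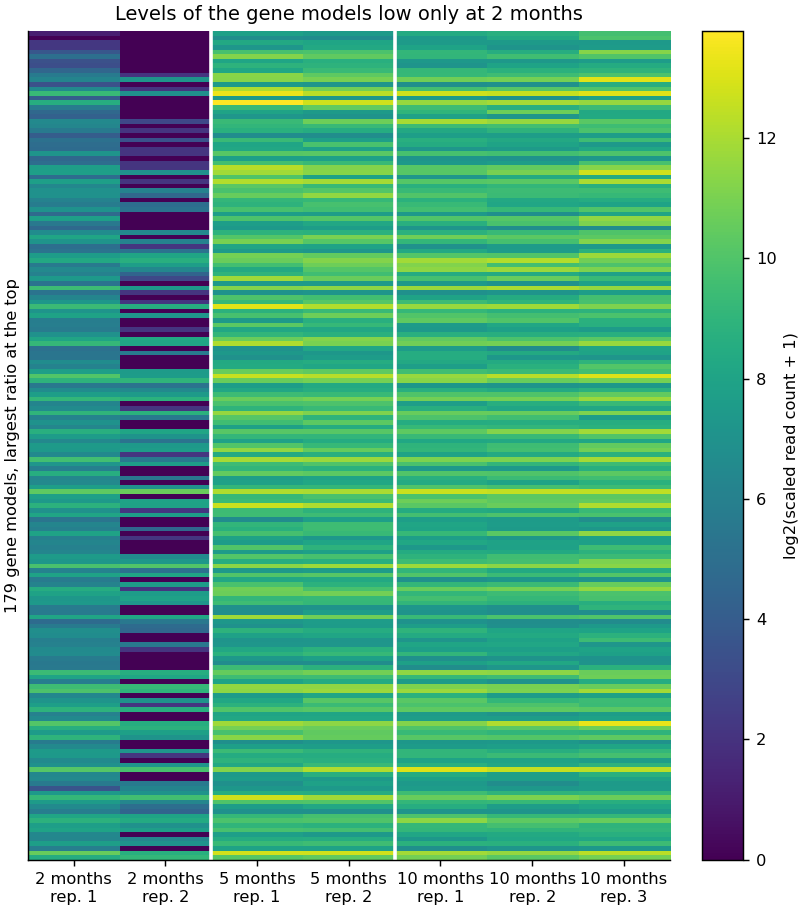
log2(scaled read count + 1) of the 179 members (rows, largest ratio at the top) in the 7 libraries (columns; rep., replicate), with white lines between harvests. In each row the 2 columns of 2 months are the darkest, and 2-month replicate 2 holds 70 rows at 0 reads.

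The member with the largest ratio was gene model 354390 (1362 bp, from the length that the deposited values imply). It had 1.21 and 0 scaled counts at 2 months, which are 2 reads and 0 reads. At 5 months it had 229 and 184, and at 10 months 342, 411 and 806. Harvests did not overlap, and the 10-month libraries were the highest. Gene model 358931 (1917 bp) had 0 reads in both 2-month libraries, the one member for which this held. It had 111 and 103 scaled counts in the 5-month libraries, and 167, 319 and 947 at 10 months, so 1 library at 10 months stood far above the other 2.

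Gene models 392904 (1720 bp) and 472226 (1671 bp) were about as low at 2 months but had lower means at 10 than at 5 months. Gene model 392904 had 3.64 and 0 scaled counts at 2 months, 322 and 274 in the 5-month libraries, and 180, 182 and 166 at 10 months. Its 10-month libraries were close to each other and all lay below both 5-month libraries. In gene model 472226 the values were 3.64 and 0 at 2 months, 150 and 321 in the 5-month libraries, and 250, 141 and 188 at 10 months. There the 5-month and 10-month libraries overlapped. In all 4 of these gene models the 2-month level rests on at most 6 reads in replicate 1 and on 0 in replicate 2.

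At the other end were members that were well expressed at 2 months already. The highest mean over the later libraries was that of gene model 414353 (850 bp), at 7576 scaled counts. It had 623 and 119 scaled counts at 2 months, 10517 and 5150 in the 5-month libraries, and 7054, 6366 and 8792 at 10 months. The 5-month libraries of this model enclosed the 10-month ones. Per kilobase it also led all members, with 8913 scaled counts per kb over the later libraries, against a median of 376 per kb for the 179 and 389 per kb for the 6182 other gene models. Next per kilobase came 453707 (1116 bp) with 4663 and 327744 (1236 bp) with 4317, both with ratios close to the minimum, at 2.01 and 2.11.

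Gene model 213659 (1873 bp) came second by scaled count. It had 385 and 0 at 2 months, 14056 and 6923 in the 5-month libraries, and 3277, 3930 and 3054 at 10 months. The 0 in 2-month replicate 2 stands against 635 reads in replicate 1, so the 2-month libraries did not match. Of its reads, 96.05% were unique, and no source used here says how the rest were shared out. Gene model 462196 (1695 bp) had 1046 and 197 at 2 months, 6268 and 4948 in the 5-month libraries, and 3181, 4955 and 8521 at 10 months, which enclose the 5-month values. Gene model 382863 (2712 bp) had 1306 and 1604 at 2 months, 4525 and 4254 in the 5-month libraries, and 6560, 5900 and 5654 at 10 months. This was the most even of the 4 most abundant members within each harvest, with means ± SD of 1455 ± 211 at 2 months (n = 2), 4389 ± 192 at 5 months (n = 2) and 6038 ± 469 at 10 months (n = 3), and its 3 harvests did not overlap.

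**Figure D3:**
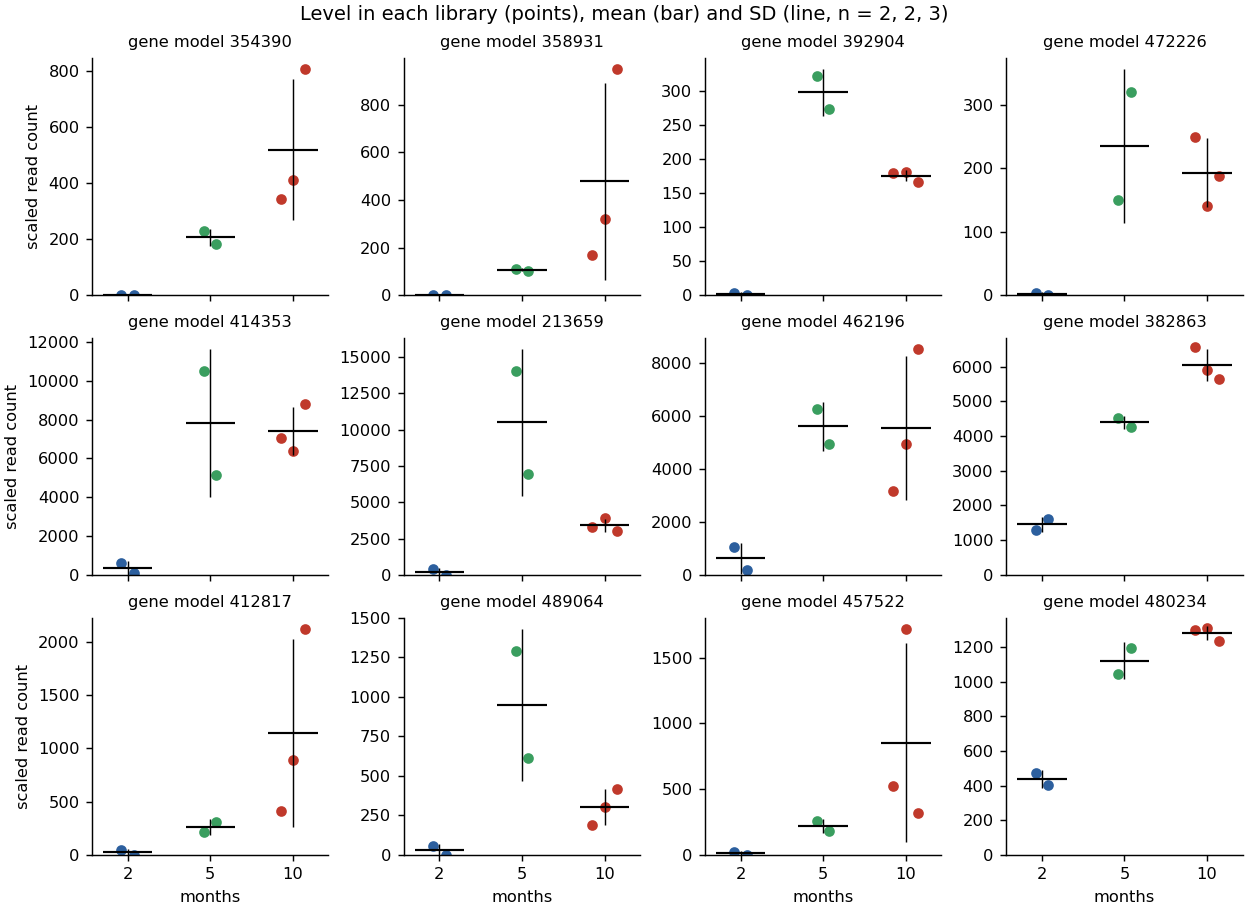
Scaled read count by months of growth (2, 5, 10) in members named for the largest ratio, the highest later level, the largest or smallest 10-to-5-month ratio and the largest or smallest variation. Points are libraries, bars are means and lines are SD (n = 2, 2 and 3), drawn from 0 upwards; the lowest points are at 2 months in every panel.

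The 2-month libraries differed from each other in these gene models. Replicate 1 was the higher one in 153 of the 179 (85.5%), against 58.1% of the 6182 other gene models, and replicate 2 in 25. In 70 members (39.1%) replicate 2 had 0 reads, against 4.61% of the other gene models, while replicate 1 had 0 reads in 1 member. Both replicates lay within 2 times of each other in 63 members (35.2%, against 59.3% of the others), and 89 members were more than 10 times apart or had 0 reads in one of them. The rule takes the higher replicate, whichever it is, and leaves the level in the other one free to be lower. The other gene models did not have to be low at 2 months, so nothing is read from the distance between these shares. Replicate 2 has the lowest depth outside the abundant gene models, and the part of depth in its zeros was not tested.

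Members with no reads in 2-month replicate 2 were lower overall. The 70 had a median level of 330 scaled counts over the later libraries and of 58.3 in 2-month replicate 1, where the median count was 96 reads. The other 109 had a median of 822 over the later libraries and of 173 (285 reads) in 2-month replicate 1. Their ratios were similar, at medians of 3.08 and 2.67. By counting error only, 0 reads in replicate 2 allow up to 10.2 scaled counts, where the median in replicate 1 was 58.3. Why the 2 replicates differed was not tested. At the opposite end, 54 members had at least 100 scaled counts in both 2-month libraries, so that low at 2 months means lower than later and not silent. A further 30 members reached 100 in replicate 1 only, and 3 in replicate 2 only. Values at most 10% of the lowest later library were found in 14 members (7.82%) in replicate 1 and in 102 (57.0%) in replicate 2.

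**Figure D4:**
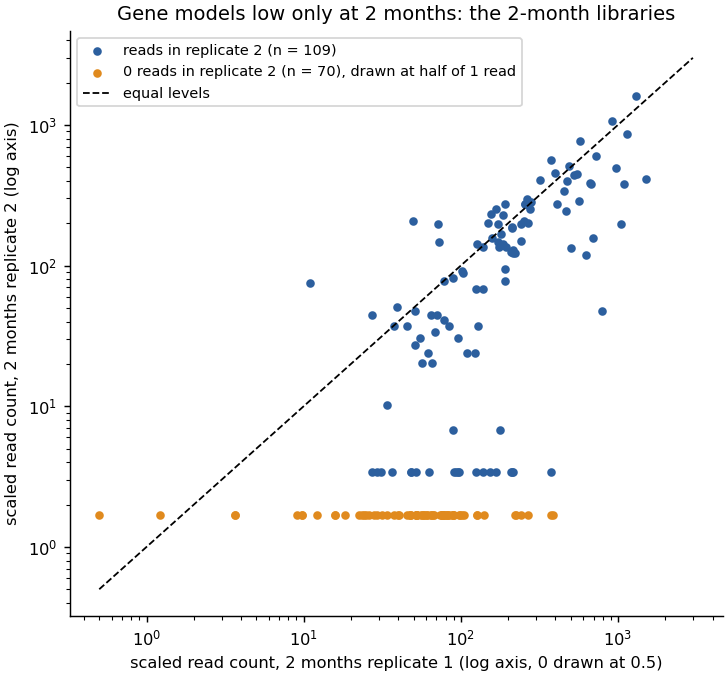
Scaled read count of the 179 members in 2-month replicate 1 (horizontal) and replicate 2 (vertical), both on log axes, with equal levels as a dashed line. The 109 members with reads in replicate 2 (blue) lie on both sides of the line, 25 of them above it, and the 70 with 0 reads (orange) form a row at the bottom.

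Each library was also left out of the choice and read afterwards. Its own values had then not chosen the gene models, but the value each was set against had. The size factors still came from all 7. With 2-month replicate 2 left out, 345 gene models met the rule, and in 179 of them (51.9%) that replicate was at most 1/2 of the lowest later library. The same held for 17.5% of the 6361 gene models with at least 100 in every later library. With 2-month replicate 1 left out, 1031 gene models met the rule, and in 179 (17.4%) replicate 1 was that low, against 6.16% of 6361. The gene models that passed in both are the 179 members themselves. Both 2-month libraries are set against the same lowest later value, so these shares are not independent of each other. The 6361 were chosen by level only, so nothing is read from the distance to their shares. Most of the 1031 gene models low in replicate 2 were not low by this measure in replicate 1.

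For the later libraries these shares were higher, but the choices were unlike. Without one of the 2-month libraries a single library set the 2-month level. Without a later library both 2-month libraries still set it. Nothing is thus read from the difference between the shares of 2-month and later libraries. Models chosen without 5-month replicate 1 were at least 2 times above both 2-month libraries in that replicate in 80.4% of 225 cases, against a background of 8.68%. For 5-month replicate 2 the share was 92.6% of 176, against 9.10%. At 10 months it was 89.1% of 202 for replicate 1 (background 12.3%), 89.5% of 200 for replicate 2 (11.5%) and 85.6% of 195 for replicate 3 (13.6%). The 2-month libraries are shared by all of these counts. They set the bar here and had also chosen the gene models, whereas the background was chosen by level only. The shares thus follow in part from the choice, and nothing is read from their distance to the background. Of the 179 members, 162 to 175 were still chosen with a later library left out. Leaving out a later library cannot lower the lowest later value. The members lost were thus those that then counted as peaking at 5 or 10 months.

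**Figure D5:**
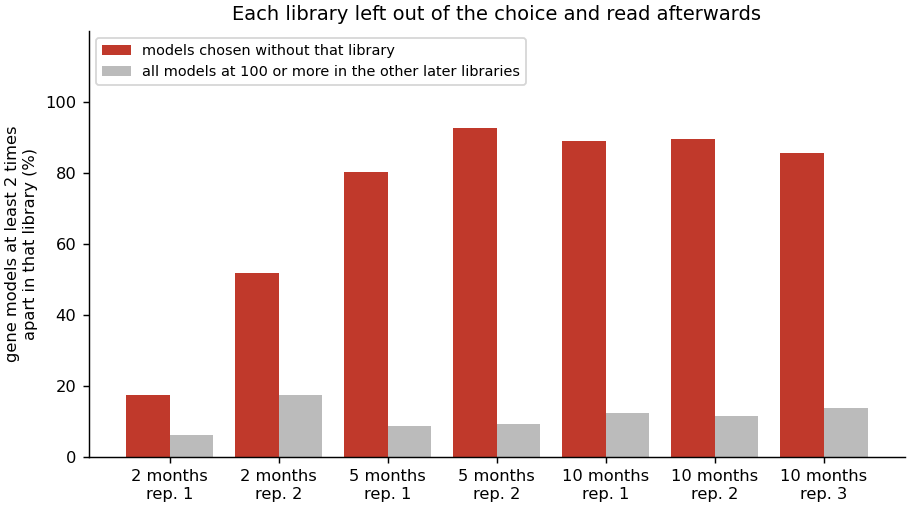
For each library, the percentage of gene models at least 2 times apart from the other stage in that library, among models chosen without it (red, left bar) and among all models at 100 or more in the remaining later libraries (grey, right bar). The red bars run from 17.4% and 51.9% for the 2-month libraries to 80.4% to 92.6% for the later ones, and the grey bars from 6.16% to 17.5%. The grey models were chosen by level only. The red bars of 2-month and later libraries come from unlike choices, so all bars are a description.

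Between 10 and 5 months the differences of the members had both signs. The mean was higher at 10 than at 5 months in 85 members (47.5%, against 57.7% of the other 6182) and lower in 94. The ratio of the 10-month to the 5-month mean had a median of 0.933 and quartiles of 0.610 and 1.39, against 1.11 with quartiles of 0.779 and 1.63 in the others. It was within 1.5 times in 81 members, at least 2 in 16 and at most 0.5 in 25. Every 10-month library lay above both 5-month libraries in 35 members (19.6%, against 33.8% of the 6361) and below both in 52 (29.1%, against 22.1%). The rule had removed gene models in which every library of one later harvest was at least 2 times all other libraries, so nothing is read from these shares.

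The highest ratios of 10 to 5 months were in gene models 358931, at 4.47, and 412817 (1439 bp), at 4.38. Gene model 412817 had 47.3 and 0 scaled counts at 2 months, 210 and 311 in the 5-month libraries, and 409, 891 and 2122 at 10 months. Its 10-month libraries lay above both 5-month ones but differed by over 5-fold from lowest to highest. The log2 fold change of 10 against 5 months was 2.32 (SE 0.80) for 358931 and 2.29 (SE 0.92) for 412817 in edgeR. Without 10-month replicate 3 these were 1.35 and 1.48, so the size of both differences depends on that library.

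The lowest ratios were those of 489064 (2475 bp), at 0.318, and 213659, at 0.326. Gene model 489064 had 58.3 and 0 scaled counts at 2 months, 1288 and 609 in the 5-month libraries, and 186, 299 and 418 at 10 months, so that the 10-month libraries lay between the other harvests. The log2 fold change was -1.50 (SE 0.83) for 489064 and -1.46 (SE 1.01) for 213659. For each it was -0.83 without 5-month replicate 1, the library in which both models were highest.

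In edgeR's fit across all genes, 0 of the 179 members were called higher or lower in 10 against 5 months at an adjusted p under 0.05. Over all 14753 gene models tested the calls were 1.63% higher and 0.21% lower. At an unadjusted p under 0.05 there were 21 members, with 13.8% of all tested gene models. DESeq2 called 4 members, and 7.93% of the gene models to which it gave an adjusted p. Without 2-month replicates 1 and 2, edgeR called 14 and 15 members, and 9.42% and 8.75% of all. The rule left out models in which every library of one later harvest stood at least 2 times above all others. A missed threshold does not show that the harvests were alike in these gene models.

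All 179 members passed the filter on low counts. The fit also covers the contrasts that chose them, where calls restate the choice. They record how many members were past the spread of this fit, and nothing is read from their distance to the share of all gene models. Both contrasts share the 2-month libraries. In 5 against 2 months 40 members were called higher (0.624% of all tested gene models were), and in 10 against 2 months 66 were (1.64% of all). In either contrast 74 were called, and 32 in both. The counts moved with the setting, and the shares that follow in brackets are those of all gene models called in either direction, which were 1.37% and 2.35% in the fit above. DESeq2 called 133 members in 5 against 2 months (8.43%) and 159 in 10 against 2 months (12.3%). Without the filter on low counts edgeR called 97 (3.17%) and 136 (5.04%). In 5 against 2 months edgeR called 161 members without 2-month replicate 1 (24.9%) and 92 without replicate 2 (6.04%). It called none of them without 5-month replicate 1 or 2, where 0.0318% and 0% of all were called, and where 125 and 115 members had an unadjusted p under 0.05. Without 10-month replicates 1 and 2 it called 22 (0.575%) and 12 (0.392%). In 10 against 2 months 174 members were called without 2-month replicate 1 (31.6%). Without 5-month replicates 1 and 2 they were 25 (0.962%) and 15 (0.727%), and without 10-month replicates 1, 2 and 3 they were 20 (0.706%), 6 (0.223%) and 21 (1.03%).

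How far the later libraries of a member differed was also uneven. The coefficient of variation over the 5 later libraries had a median of 36.1% and ran from 8.76% to 108%, against a median of 30.0% in the other 6182 gene models. From the lowest to the highest later library members differed by a median of 2.37-fold (2.10-fold in the others), by under 2-fold in 63 members and by over 5-fold in 22. The steadiest member was 480234 (2023 bp), with 475 and 401 scaled counts at 2 months, 1047 and 1197 in the 5-month libraries, and 1301, 1311 and 1234 at 10 months. Its harvests did not overlap although its ratio was only 2.20. Gene model 351183 (3375 bp) came next, with 10.9 and 74.8 at 2 months, 156 and 169 in the 5-month libraries, and 194, 164 and 190 at 10 months. Here 2-month replicate 2 was the higher one. Besides 358931, the most variable was 457522 (576 bp), with 24.3 and 0 scaled counts at 2 months, 258 and 183 in the 5-month libraries, and 525, 1719 and 315 at 10 months, where replicate 2 stood alone.

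The later library that was highest most often was 10-month replicate 3, in 55 members (30.7%), followed by 5-month replicates 2 and 1 with 45 and 43, and by 10-month replicates 1 and 2 with 24 and 12. Among the 6182 other gene models it was the highest in 27.9%. For 5-month replicates 1 and 2 the shares were 24.0% and 25.1% of the members, against 24.2% and 13.9% of the others. For 10-month replicates 1 and 2 they were 13.4% and 6.70%, against 16.8% and 17.1%. In 26 members (14.5%) 10-month replicate 3 was more than 2 times both other 10-month libraries, against 2.39% of the others, and in 4 (2.23%, against 3.41%) it was less than 1/2 of both. In those 26 the median was 1766 scaled counts in replicate 3, 629 in the mean of the other 10-month replicates and 729 at 5 months. Of the 26, 14 (53.8%) had 0 reads in 2-month replicate 2, against 36.6% of the remaining 153. With 10-month replicate 3 left out of the rule 195 gene models met it, 164 of the 179 among them. The other members then counted as peaking at 5 or 10 months.

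Length and read uniqueness were not used by the rule. The median implied length of the members was 1626 bp (quartiles 1228 and 2050, range 462 to 5834 bp), close to the median of 1575 bp (quartiles 1080 and 2217) in the other 6182 gene models and above that of 1323 bp over all 18407 detected models. There were fewer short models among the members: 18 (10.1%) were under 1000 bp, against 20.4% of the others, whereas 72.6% and 68.4% were under 2000 bp. Members with 0 reads in 2-month replicate 2 had a median of 1428 bp and the rest 1683 bp. At least 99% of the reads were unique in 174 members (97.2%, against 97.0% of the others), and the lowest unique share was 92.5%. The other 5 members, 213659 among them, may share reads with near-identical copies, and their values are the less certain for it. Lengths may not be independent between gene models, and no test was made.

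Among the gene models with at least 100 scaled counts in every later library, members were found in every range of level. Of those with a mean of 100 to 200 scaled counts over the later libraries, 22 of 457 (4.81%) were members, the largest share. The share was 2.50% of 2237 from 200 to 500, 2.93% of 1606 from 500 to 1000, 2.65% of 1095 from 1000 to 2000 and 2.59% of 966 above 2000. The whole share was 2.81% of 6361.

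The gene models whose pattern over the 7 libraries was most like that of the 2 most abundant members were found by Pearson's r of log2(scaled count + 1) among 14753 models. For 414353 these were 426107 (980 bp, r = 0.993), 341909 (2070 bp, r = 0.992) and 417414 (1103 bp, r = 0.992). For 213659 they were 375043 (1435 bp, r = 0.999), 231582 (1321 bp, r = 0.996) and 326786 (741 bp, r = 0.996). Of these, 426107 and 375043 are members, and the other 4 had too few reads, with a lowest later library of 18.0 to 57.5 scaled counts. Gene model 375043 had 81.3 and 0 scaled counts at 2 months, 1204 and 628 in the 5-month libraries, and 429, 548 and 414 at 10 months, with 100% unique reads. It was highest and lowest in the same harvests as 213659, which follows in part from the search by r. All values share the same 7 libraries, and the difference between the later harvests and 2 months enters each r.

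The edges of the rule cut through a continuous range. Just inside the ratio were 453707, with at least 3047 scaled counts later and at most 1517 at 2 months, and 496550 (2772 bp), with at least 1122 later and at most 561 at 2 months. Their ratios were 2.01 and 2.00. Just outside were 494576 (1728 bp), with 815 later and 408 at 2 months, and 336768 (1290 bp), with 23520 later and 11775 at 2 months, both with ratios that also round to 2.00. There were 34 gene models with ratios from 2 to 2.2 and 43 from 1.8 to 2 at this level. At the minimum of 100, gene models 122588 (lowest later library 101) and 379282 (102) were members, and 427620 (99.7) and 465802 (97.8), with ratios of 2.08 and 2.04, were not.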

How the data were processed

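The authors deposited 1 table per library with counts of unique and total gene reads and an RPKM value for 19765 gene models, per the file headers. No source used here gives the aligner, counter, build or strand handling. Paired reads of 125 bp came from total RNA, per the labels. RPKM values deposited by the authors served only to recover lengths, which matched between libraries within 0.0045 bp. Total gene reads were scaled with size factors (median of reads over the geometric mean). The tests were edgeR 4.0.16 quasi-likelihood fits in R 4.3.3 across all genes (filterByExpr, TMM, 3 harvests as groups, 7 libraries, Benjamini-Hochberg adjusted p under 0.05). DESeq2 1.42.0 was an alternative. The edgeR fit was tested on simulated data with changes larger than any 10-to-5-month ratio of the members. Smaller changes were not simulated. SE is the size of a log2 fold change over the root of its F statistic. Members, lists and naming rules (largest ratio, level, 10-to-5-month ratio, variation, edges of the rule) were chosen with earlier results of these data known. The 8 abundant models have a mean share of at least 1% of reads. With no products in the files, the prepared gene lists were not used. Naming 453707 and 327744 for their level per kilobase, 375043 with its values, and the 2 members nearest the minimum level was decided after their values were seen.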

Additional observations from a re-analysis of the deposited data

How the results depend on the processing

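The number of gene models meeting the rule was 179 and stayed within 1.5 times of that with TMM factors (151, 146 of them members), with totals outside the 8 abundant models (159, 128 members) and with unique reads (179, all members). With the total of all gene reads it was 79, of which 46 were members. It was 281 and 117 with a minimum of 50 and 200 scaled counts, and 331 and 77 with a ratio of 1.5 and 3. Leaving out 1 library gave 176 to 1031, and leaving out both 2-month replicate 2 and 10-month replicate 3, an alternative added after seeing the data, gave 380 with 164 of the 179. Members called in 10 against 5, 5 against 2 and 10 against 2 months were 0, 40 and 66. With no low-count filter they were 5, 97 and 136 (3.79%, 3.17% and 5.04% of all gene models were called), and with DESeq2 4, 133 and 159 (7.93%, 8.43% and 12.3%), against 1.84%, 1.37% and 2.35% in the edgeR fit. Leaving out 1 library gave 0 to 15, 0 to 161 and 6 to 174, where a harvest left with 1 library is assumed to vary like the others. Median-of-ratios factors and unique reads moved none of the 3 counts by over 1.5 times. Why the counts shifted, the cause, was not tested. With the replicate number as a block (replicate block) they were 0, 28 and 14 (0.793%, 0.766% and 0.542% of all). Deviations of same-numbered libraries from their harvest means had correlations of -0.22 to 0.04. In a harvest of 2 libraries these deviations mirror each other, so they cannot show whether same-numbered libraries share more than a number. The log2 fold changes of 358931, 412817, 489064 and 213659 in 10 against 5 months kept their sign in the alternatives run. Levels at or under 3 reads in 2-month replicate 2 are not resolved at its depth.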
